A study of Homo sapiens with 2 samples.

Results

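CD44, CD24, EPCAM, PROM1, ALDH1A1, ALDH1A3 and ITGA6 are the genes most often used to mark stem-like cells in breast cancer, and their RNA is described here across 6 human breast cancer cell lines profiled as single cells. The 7 genes were taken by symbol, 7 of the 36601 genes counted. BT-474, MDA-MB-231 and MDA-MB-453 were mixed in a first pool and HCC38, Hs578T and MDA-MB-436 in a second, each line stained with its own lipid-anchored multiplexing oligo before pooling. The labels name no drug treatment or genetic change in any group. Each line was 1 culture in 1 capture, so the differences between lines have no replicate check and stand without p-values.

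BT-474 and MDA-MB-453 are luminal lines with raised HER2 (ERBB2), and BT-474 also makes the oestrogen receptor. The other 4 are triple-negative lines, which lack the oestrogen and progesterone receptors and raised HER2. The link between oligos and lines is not in the labels, so the 6 groups of barcodes, separated by suffix, were named from marker genes. The BT-474-like group led 9 of 10 markers of its line (ERBB2 and ESR1 among them), the MDA-MB-231-like group 6 of 10, the MDA-MB-453-like group 4 of 7 (FGFR4 and TFAP2B among them), the HCC38-like group 6 of 8, the Hs578T-like group 9 of 9 and the MDA-MB-436-like group 6 of 7. No group led more than 1 marker of any other line. The 3 groups of each capture were those of 1 pool.

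CD44 is a surface receptor for hyaluronan, and CD24 is a small, heavily glycosylated protein held in the membrane by a lipid anchor. Human breast cells with surface CD44 and little or no CD24 were the first population of a solid tumour described as enriched for tumour-initiating cells, usually together with EPCAM, an epithelial adhesion molecule. ITGA6 (CD49f) is the alpha chain of laminin-binding integrins and marks basal and progenitor cells of the mammary gland. PROM1 (CD133) is a membrane protein of cell protrusions. ALDH1A1 and ALDH1A3 oxidise retinaldehyde to retinoic acid and are the main sources of the activity measured by the ALDEFLUOR assay. The counts describe RNA, while the sorting definitions of these populations rest on surface protein or enzyme activity.

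All 7 genes are protein coding, and their positions follow GRCh38 and GENCODE 29. CD44 (ENSG00000026508) lies at chr11:35138870-35232402 on the plus strand, CD24 (ENSG00000272398) at chr6:106969831-106975627 on the minus strand and EPCAM (ENSG00000119888) at chr2:47345158-47387601 on the plus strand. ITGA6 (ENSG00000091409) lies at chr2:172427354-172506282 on the plus strand and PROM1 (ENSG00000007062) at chr4:15963076-16084378 on the minus strand. ALDH1A1 (ENSG00000165092) lies at chr9:72900662-73080442 on the minus strand and ALDH1A3 (ENSG00000184254) at chr15:100877714-100916626 on the plus strand. Antisense genes overlap CD44 (CD44-AS1), ITGA6 (ITGA6-AS1) and ALDH1A3 (AC015712.7 among them), and the strand setting of the counting is unknown from the sources used here, so reads of the partners may be mixed. CD24 has processed pseudogenes (CD24P1, CD24P2 and CD24P4) that were not in the count table, and reads matching them as well may have been lost, which makes the CD24 level uncertain. FGFBP2, a protein-coding gene that was counted, overlaps PROM1 on the same strand, and AL133330.1 overlaps CD44 in the same way. Reads that matched both genes of such a pair may also have been lost, so the PROM1 level is uncertain too.

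RefSeq promoter windows on GRCh38.p14 were matched for 6 of the 7 genes, in 12 windows, and EPCAM had no entry. The windows follow the start sites of RefSeq transcripts, which can differ from the gene starts of GENCODE given above. Those of CD44, PROM1, ALDH1A1 and ALDH1A3, and a further window of CD24, lie inside the GENCODE gene. The 250 bases before the RefSeq start are printed, 5′ to 3′ on the strand of the gene, for the surface pair CD44 and CD24 and for the enzymes ALDH1A1 and ALDH1A3, because the members of each pair were high in different lines. Capitals mark matches, on either strand, to the GC box (GGGCGG or CCGCCC), the CCAAT box (CCAAT or ATTGG), the TATA box (TATAAA or TTTATA) and the E-box bound by ZEB and SNAIL factors (CAGGTG or CACCTG). CD24 has several windows, and the one that ends where the GENCODE gene starts is shown.
CD44, chr11:35138921-35139170, plus strand: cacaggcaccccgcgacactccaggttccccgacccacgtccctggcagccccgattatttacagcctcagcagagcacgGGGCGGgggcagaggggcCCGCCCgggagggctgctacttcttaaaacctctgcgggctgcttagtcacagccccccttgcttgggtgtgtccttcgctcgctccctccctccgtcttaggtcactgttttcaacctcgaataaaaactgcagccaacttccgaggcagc
CD24, chr6:106975628-106975877, minus strand: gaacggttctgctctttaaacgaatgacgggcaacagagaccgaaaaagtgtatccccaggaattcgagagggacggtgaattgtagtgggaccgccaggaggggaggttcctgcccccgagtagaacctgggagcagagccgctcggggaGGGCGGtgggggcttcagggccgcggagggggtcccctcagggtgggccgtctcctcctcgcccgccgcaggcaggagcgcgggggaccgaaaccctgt
ALDH1A1, chr9:72953054-72953303, minus strand: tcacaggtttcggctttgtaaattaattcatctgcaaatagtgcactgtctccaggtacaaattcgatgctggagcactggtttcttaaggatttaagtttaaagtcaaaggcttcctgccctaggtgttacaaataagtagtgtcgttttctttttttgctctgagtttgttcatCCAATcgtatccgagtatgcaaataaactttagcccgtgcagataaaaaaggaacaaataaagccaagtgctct
ALDH1A3, chr15:100879581-100879830, plus strand: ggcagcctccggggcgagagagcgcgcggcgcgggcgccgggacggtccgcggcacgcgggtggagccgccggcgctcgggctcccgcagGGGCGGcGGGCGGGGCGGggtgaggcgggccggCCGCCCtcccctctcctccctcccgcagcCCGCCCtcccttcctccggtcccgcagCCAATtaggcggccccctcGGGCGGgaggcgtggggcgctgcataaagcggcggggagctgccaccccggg
The ALDH1A3 window had 82.4% G and C with 6 GC box matches, and the ALDH1A1 window had 38.4% with 0. CD44 had 62.4% with 2 GC box matches and CD24 65.6% with 1, beside a median of 58.0% over 35116 windows. A CCAAT match lay 74 bases before the start of ALDH1A1 and 71 before that of ALDH1A3. Of all windows of this length, 42.6% held a GC box match, 32.0% a CCAAT match, 17.5% an E-box match and 10.7% a TATA match. None of the 4 printed windows held the TATA or E-box letters, which says nothing of binding elsewhere. A match is a description of the letters only.

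After filtering, 15082 cells of 17605 barcodes were kept, between 1867 (Hs578T-like) and 3375 (MDA-MB-453-like) per group. Summed UMIs (unique molecular identifiers, 1 per captured RNA molecule) ran from 68866347 in BT-474-like to 88915358 in HCC38-like cells. Median UMIs per cell ran from 20199 in MDA-MB-453-like to 37929 in Hs578T-like cells, and the median mitochondrial share from 5.85% to 14.6%, highest in BT-474-like cells. Of the barcode sequences, 22 occurred in both captures. Levels are given as CPM, the UMIs of a gene scaled to a fixed total per group, with exact 95% Poisson intervals. These and all other intervals cover counting error only, and are narrower than the true error because counts varied between cells by more than Poisson sampling. Levels were set against a carry-over level, an estimate of the CPM that RNA from the other 2 lines of the capture would give. For each of those lines it used the genes lowest in the receiving line relative to that line, and the 2 parts were added. The estimated carry-over from a single line was between 0.819% and 5.43% of its level, highest from MDA-MB-436-like into HCC38-like cells. The plot of levels shows it for each gene and group, and it is printed where it is near a level. The carry-over level also counts any true expression, in the receiving line, of the genes used, and any RNA of these genes that came from the remaining line. It can thus be too high for a gene that both other lines make, such as CD44 in HCC38-like cells. Of 42 levels (7 genes in 6 groups), 33 lay above their carry-over level by the lower end of their interval and 9 did not. Shares of cells with a UMI were taken after thinning each cell to 10000 UMIs, a step that dropped 92 MDA-MB-436-like, 87 HCC38-like, 26 Hs578T-like, 13 BT-474-like cells and 30 cells of each of the other groups.

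CD44 RNA was high in 3 triple-negative groups, intermediate in HCC38-like cells and low in both luminal groups. Its level was 391 CPM (386 to 395) in Hs578T-like, 379 CPM (375 to 383) in MDA-MB-436-like and 329 CPM (325 to 333) in MDA-MB-231-like cells. HCC38-like cells had 125 CPM (123 to 128), with a carry-over level of 28.4 CPM. BT-474-like cells had 7.25 CPM (6.62 to 7.91), above their carry-over level of 3.12 CPM. The 3.05 CPM (2.67 to 3.48) of MDA-MB-453-like cells could not be told from the carry-over level of 2.84 CPM. No neighbours in this order had overlapping intervals. At 10000 UMIs, CD44 was detected in 96.2% of Hs578T-like, 95.8% of MDA-MB-436-like, 92.4% of MDA-MB-231-like and 64.8% of HCC38-like cells. The corresponding shares were 6.56% of BT-474-like and 2.63% of MDA-MB-453-like cells, and without thinning they were 18.5% and 6.31%. The background differs by group. Poisson counts at the carry-over level alone would give a CD44 UMI in 24.7% of HCC38-like, 7.67% of Hs578T-like, 7.65% of MDA-MB-436-like, 3.07% of BT-474-like, 2.80% of MDA-MB-453-like and 0.111% of MDA-MB-231-like cells. The observed share lay below this in MDA-MB-453-like cells and above it in the other 5 groups.

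CD24 RNA had nearly the opposite order, with HCC38-like cells among the high groups. BT-474-like cells had 548 CPM (543 to 554), HCC38-like cells 196 CPM (193 to 199) and MDA-MB-453-like cells 158 CPM (155 to 161). The other 3 groups were far lower. MDA-MB-436-like cells had 23.4 CPM (22.4 to 24.5), MDA-MB-231-like cells 14.0 CPM (13.2 to 14.9) and Hs578T-like cells 8.32 CPM (7.69 to 8.99), with carry-over levels of 1.80, 7.64 and 2.18 CPM. A CD24 UMI was found in 99.3% of BT-474-like cells, 68.3% of MDA-MB-453-like cells and 60.1% of HCC38-like cells at 10000 UMIs. It was found in 16.2% of MDA-MB-436-like, 11.1% of MDA-MB-231-like and 7.60% of Hs578T-like cells. HCC38-like cells therefore had a higher CD24 level than MDA-MB-453-like cells in a smaller share of cells. With TMM scaling, another way to scale the group totals, these CD24 levels were closer, at 169 and 161 CPM.

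**Figure D1:**
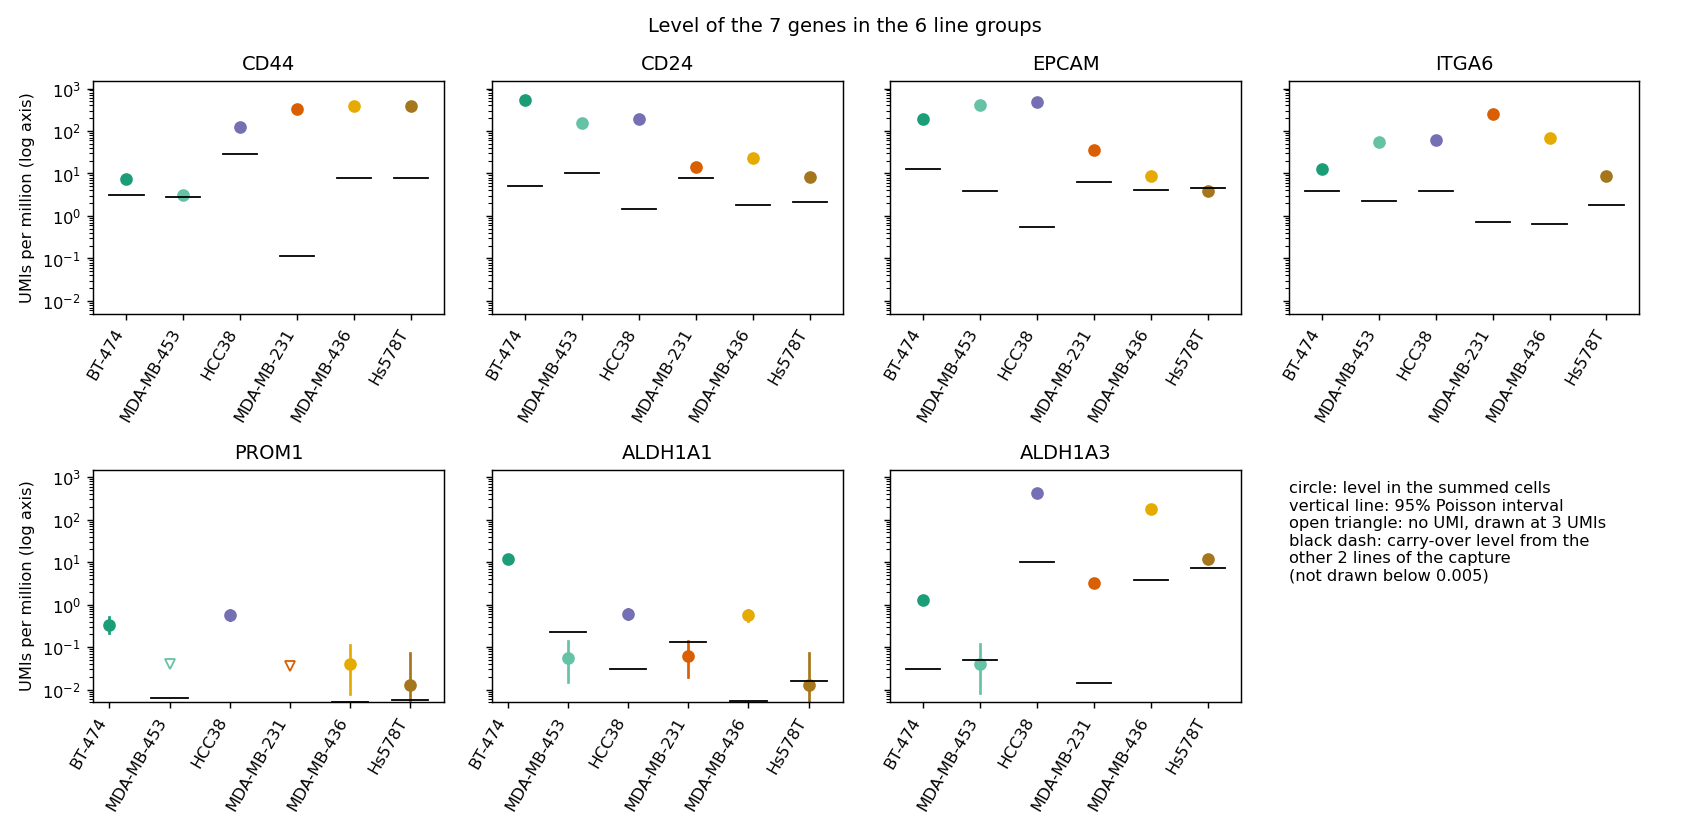
Level of each of the 7 genes in the 6 groups, labelled by line, in CPM on a logarithmic axis, with exact Poisson 95% intervals (vertical lines) and the carry-over level (black dashes), and open triangles at 3 UMIs where none was counted. CD44 is high where CD24 is low except in HCC38-like cells, and PROM1 lies below 1 CPM in every group.

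EPCAM RNA was highest in HCC38-like cells, at 485 CPM (480 to 489), followed by 407 CPM (402 to 412) in MDA-MB-453-like and 191 CPM (188 to 194) in BT-474-like cells. With TMM scaling the HCC38-like and MDA-MB-453-like levels were 418 and 414 CPM, so their order depends on the scaling. MDA-MB-231-like cells had 36.3 CPM (35.0 to 37.6) and MDA-MB-436-like cells 8.81 CPM (8.16 to 9.50), above carry-over levels of 6.47 and 4.16 CPM. The 3.86 CPM (3.43 to 4.32) of Hs578T-like cells lay below their carry-over level of 4.49 CPM. EPCAM was detected at 10000 UMIs in 98.1% of MDA-MB-453-like, 95.1% of HCC38-like and 82.7% of BT-474-like cells. The share was 29.6% of MDA-MB-231-like, 8.49% of MDA-MB-436-like and 2.99% of Hs578T-like cells, the last of which is read as background.

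ITGA6 RNA was highest in MDA-MB-231-like cells, at 247 CPM (243 to 250) and in 85.3% of cells at 10000 UMIs. The next 3 groups were of both types. MDA-MB-436-like cells had 69.7 CPM (67.8 to 71.6), HCC38-like cells 60.2 CPM (58.6 to 61.8) and MDA-MB-453-like cells 53.9 CPM (52.3 to 55.6). The order of the HCC38-like and MDA-MB-453-like levels reversed with TMM scaling. BT-474-like cells had 12.6 CPM (11.8 to 13.5) and Hs578T-like cells 8.61 CPM (7.97 to 9.30), both above their carry-over levels of 3.93 and 1.80 CPM. High ITGA6 thus did not go with high CD44 in Hs578T-like cells, which had the highest CD44 and the lowest ITGA6 of the 6 groups.

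PROM1 RNA stayed under 1 CPM in every group. Loss of reads shared with the overlapping FGFBP2 may have lowered these counts, which was not tested. It gave 51 UMIs in HCC38-like cells (0.574 CPM, 0.427 to 0.754), 23 in BT-474-like, 3 in MDA-MB-436-like, 1 in Hs578T-like and 0 in both MDA-MB-231-like and MDA-MB-453-like cells. In MDA-MB-231-like cells the limit that a count of 0 allows, taken as 3 UMIs of the total, is 0.0365 CPM, and the upper end of the exact interval is 0.0449 CPM. At 10000 UMIs, 0.638% of HCC38-like cells had a PROM1 UMI. The gene did not reach the 10 CPM in any group that was required for a comparison between groups.

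The ALDH1A enzymes were high in different lines. ALDH1A3 reached 428 CPM (424 to 433) in HCC38-like and 183 CPM (180 to 186) in MDA-MB-436-like cells, where 82.9% and 64.9% of cells had a UMI at 10000 UMIs. Hs578T-like cells had 12.1 CPM (11.3 to 12.9), with a carry-over level of 7.13 CPM. MDA-MB-231-like cells had 3.25 CPM from 267 UMIs and BT-474-like cells 1.26 CPM from 87 UMIs. MDA-MB-453-like cells had 3 UMIs, 0.0407 CPM, with a carry-over level of 0.0505 CPM. ALDH1A1 passed 10 CPM in BT-474-like cells only, at 11.9 CPM (11.1 to 12.8), with a UMI in 9.93% of cells. It gave 54 UMIs in HCC38-like (0.607 CPM) and 43 in MDA-MB-436-like cells (0.563 CPM), whose intervals overlap. MDA-MB-231-like, MDA-MB-453-like and Hs578T-like cells gave 5, 4 and 1 UMIs, which is 0.0609, 0.0543 and 0.013 CPM. These levels lay below carry-over levels of 0.129, 0.226 and 0.0156 CPM.

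The CD44-positive CD24-negative class, cells with at least 1 CD44 UMI and no CD24 UMI at 10000 UMIs, held most cells of 3 lines and almost none of the luminal lines. It held 89.1% of Hs578T-like cells (1640 of 1841; 87.6 to 90.5, exact Clopper-Pearson 95% interval), 82.3% of MDA-MB-231-like cells (2345 of 2851; 80.8 to 83.6) and 80.0% of MDA-MB-436-like cells (1752 of 2190; 78.3 to 81.7). HCC38-like cells stood between, at 27.7% (652 of 2352; 25.9 to 29.6). MDA-MB-453-like cells had 0.717% (24 of 3345; 0.46 to 1.07) and BT-474-like cells 0.18% (4 of 2225; 0.049 to 0.46). With CD44 at its carry-over level alone and the observed CD24 shares, the class would hold 9.88% of HCC38-like, 7.09% of Hs578T-like, 6.41% of MDA-MB-436-like, 0.885% of MDA-MB-453-like, 0.099% of MDA-MB-231-like and 0.0221% of BT-474-like cells. The MDA-MB-453-like share lay below that value and is read as background. The HCC38-like value may be too high, because CD44 was high in both other lines of that capture. The part of carry-over in the HCC38-like class was not tested. The intervals of MDA-MB-231-like and MDA-MB-436-like cells overlap, and those of the luminal pair meet at 0.46.

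The class was set beside the share that independent detection of both genes would give, the product of the separate shares. That product was 88.9% in Hs578T-like, 82.2% in MDA-MB-231-like, 80.2% in MDA-MB-436-like and 25.9% in HCC38-like cells. In Hs578T-like, MDA-MB-231-like and MDA-MB-436-like cells nearly all cells had CD44 and few had CD24. Such shares leave little room for another value, so the closeness there says little about independence. In HCC38-like cells the product lay just below the interval of the observed share. It was 0.833% in MDA-MB-453-like cells, inside the interval, and 0.047% in BT-474-like cells, just below an interval that rests on 4 cells. The other classes differed by line. Cells with both RNAs were 37.1% of HCC38-like, 15.8% of MDA-MB-436-like, 10.2% of MDA-MB-231-like, 7.12% of Hs578T-like, 6.38% of BT-474-like and 1.91% of MDA-MB-453-like cells. Carry-over alone would give a CD24 UMI in 7.36% of MDA-MB-231-like, 2.15% of Hs578T-like and 1.79% of MDA-MB-436-like cells. It would give a CD44 UMI in 24.7% of HCC38-like, 3.07% of BT-474-like and 2.80% of MDA-MB-453-like cells. The part of background in the shares with both RNAs was not tested. CD24 without CD44 was found in 92.9% of BT-474-like, 66.4% of MDA-MB-453-like and 23.0% of HCC38-like cells. Neither RNA was found in 30.9% of MDA-MB-453-like and 12.2% of HCC38-like cells.

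**Figure D2:**
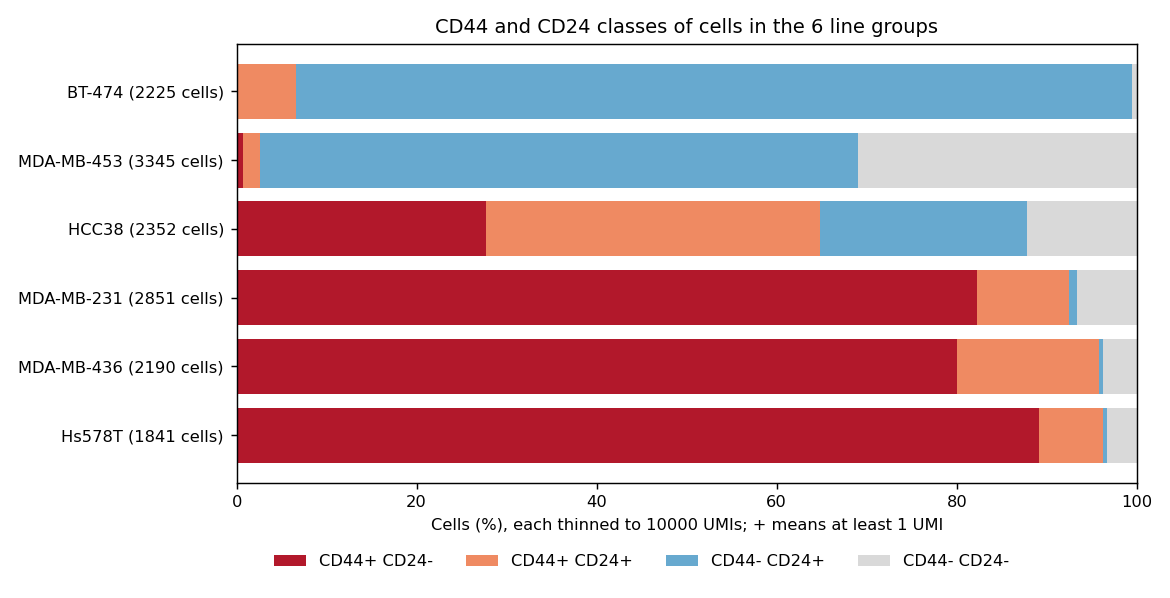
Share of cells (percent) in the 4 classes of CD44 and CD24 detection at 10000 UMIs per cell, for the 6 groups, labelled by line. The CD44-positive CD24-negative class takes 80.0% to 89.1% of 3 triple-negative groups, 27.7% of HCC38-like cells and under 1% of the luminal groups.

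The share moved with depth and with the number of UMIs asked for. In HCC38-like cells it was 23.0% at 20000 UMIs and 18.1% without thinning, and in MDA-MB-436-like cells 74.8% and 65.9%. Where a cell needed 2 CD44 UMIs to be positive, the HCC38-like share was 15.8%, and where 1 CD24 UMI was still counted as negative it was 42.0%. The luminal groups stayed at 1.44% or less and the Hs578T-like, MDA-MB-231-like and MDA-MB-436-like groups at 65.9% or more under the depth and UMI settings tried.

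**Figure D3:**
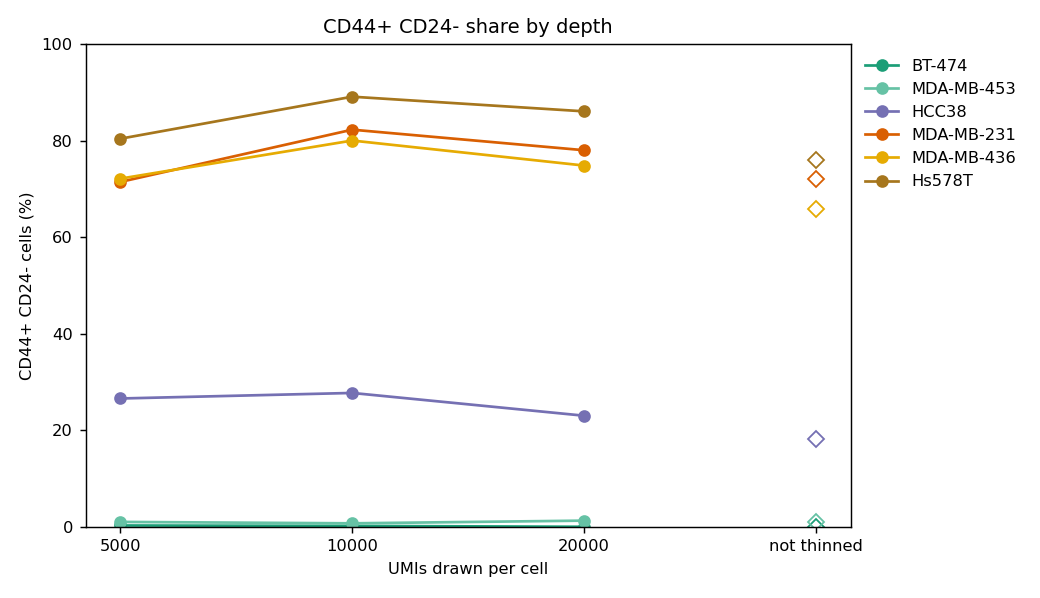
Share of CD44-positive CD24-negative cells (percent) by the number of UMIs to which each cell was thinned (filled points) and without thinning (open diamonds), for the 6 groups, labelled by line. The HCC38-like share lies between the luminal groups and the other 3 groups at each depth drawn.

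EPCAM separated the groups that had the class. Cells with CD44 and EPCAM and without CD24 numbered 589 of 2352 HCC38-like cells (23.3% to 26.8%) and 674 of 2851 MDA-MB-231-like cells (22.1% to 25.2%), and made up 6.90% of MDA-MB-436-like and 2.50% of Hs578T-like cells. Of the CD44-positive CD24-negative cells, 90.3% of HCC38-like, 28.7% of MDA-MB-231-like, 8.62% of MDA-MB-436-like and 2.81% of Hs578T-like cells had an EPCAM UMI. Among all other cells of the same groups these shares were 96.9%, 33.4%, 7.99% and 4.48%. Carry-over alone would give an EPCAM UMI in 0.554% of HCC38-like, 6.26% of MDA-MB-231-like, 4.08% of MDA-MB-436-like and 4.39% of Hs578T-like cells. The Hs578T-like shares are read as background, and the part of carry-over in the MDA-MB-436-like shares was not tested.

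Between cells of the class and the other cells of their own line, the genes the class did not use had ratios from 0.64 to 1.41 where a ratio was computed. In HCC38-like cells, EPCAM was 417 CPM inside the class and 514 CPM outside it, a ratio of 0.811 (0.777 to 0.847). ALDH1A3 there was 403 against 466 CPM, a ratio of 0.866 (0.828 to 0.905), and the ITGA6 ratio was 0.988 (0.878 to 1.11). The median mitochondrial share was 6.32% inside and 5.81% outside. The markers used to name the other lines of the capture summed to 667 and 603 CPM, which also counts any expression of them in HCC38-like cells. The part of these in the result was not tested. In MDA-MB-436-like cells ALDH1A3 gave 2985 UMIs in the 1752 cells inside and 1095 UMIs in the 438 cells outside, a ratio per cell of 0.682 (0.636 to 0.731). Mitochondrial shares were 7.69% and 6.65% and cycling shares 75.4% and 68.3%, whose part was not tested either. Of the 438 cells outside, 345 had both RNAs, so this contrast is mainly one of CD24 and not of CD44. In MDA-MB-231-like cells the EPCAM ratio was 0.835 (0.718 to 0.974) and the ITGA6 ratio 1.06 (0.994 to 1.13). In Hs578T-like cells every interval with counts on both sides included 1. No ALDH1A3 ratio above 1 had an interval that left out 1. ALDH1A1 had too few UMIs for a ratio in any group, with 13 inside and 2 outside in MDA-MB-436-like cells and 1 and 5 in HCC38-like cells. The luminal groups had too few cells in the class for this comparison.

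CD24 and ALDH1A3 varied widely from cell to cell in HCC38-like cells, as did ALDH1A3 in MDA-MB-436-like and CD24 in MDA-MB-453-like cells. The measure is the Fano factor, the variance divided by the mean of counts thinned to 10000 UMIs, which is 1 for Poisson sampling and had a median over genes of 1.05 to 1.09 in the 6 groups. For a gene that varies by more than Poisson sampling it rises with the mean and the depth. Ranks, and values of genes or groups at unlike levels, therefore do not compare spread alone. CD24 in HCC38-like cells had 3.34 at 5000 UMIs and 9.43 at 20000 UMIs. In HCC38-like cells ALDH1A3 had a Fano factor of 7.35, rank 33 of 8323 genes, and CD24 one of 6.28, rank 45. No ALDH1A3 UMI was found in 17.1% of HCC38-like cells, where Poisson counts of the same mean give 1.13%, and the 10% of cells with the most UMIs held 40.4% of all. No CD24 UMI was found in 39.9% of them, against 13.4% for Poisson counts, and the top 10% held 48.0%. The highest cell had 74 ALDH1A3 UMIs and another had 60 CD24 UMIs. In MDA-MB-436-like cells ALDH1A3 had a Fano factor of 2.95 (rank 58 of 7989) and CD24 one of 1.75 (rank 244). In MDA-MB-453-like cells CD24 had 2.42 (rank 72 of 7829), and in BT-474-like cells, where CD24 was highest, 1.56 (rank 224 of 7575). CD44 had 1.34 to 1.55 in the 4 triple-negative groups. In MDA-MB-231-like cells ITGA6 had the highest value of the 7 genes, 1.64 (rank 293 of 7882), followed by CD44 at 1.54, and in Hs578T-like cells CD44 had 1.34.

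**Figure D4:**
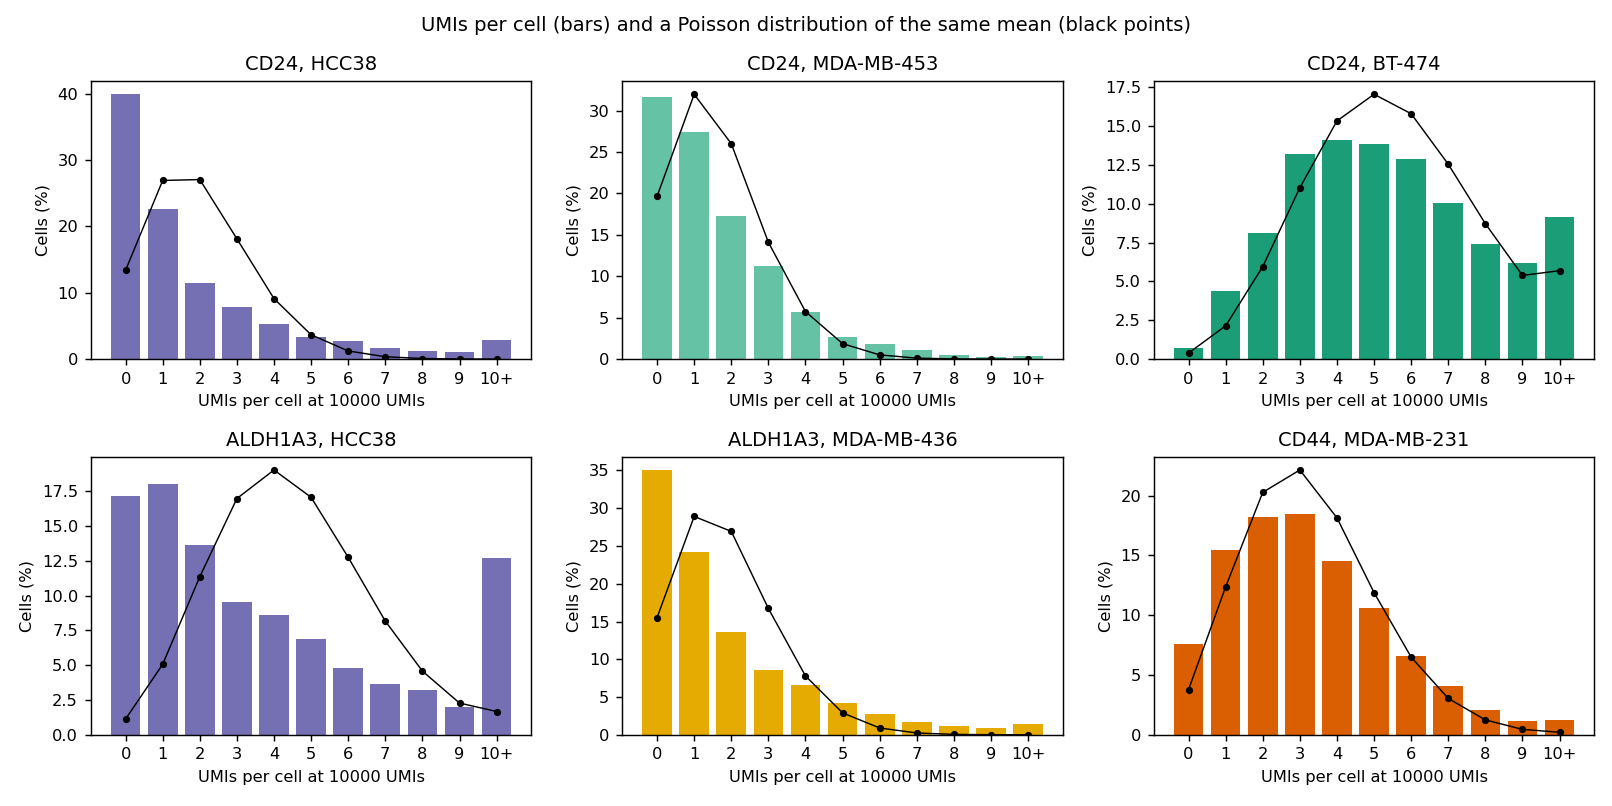
Percentage of cells (bars) at each number of UMIs, with cells thinned to 10000 UMIs, for 6 pairs of a gene and a group, and a Poisson distribution of the same mean (black points). HCC38-like cells have more cells with 0 UMIs of CD24 (39.9%) and ALDH1A3 (17.1%) than Poisson counts of the same mean, and a long upper tail.

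The wide CD24 and ALDH1A3 distributions of HCC38-like cells overlapped in part. Cells with at least 5 CD24 UMIs were 12.9% (303 cells), cells with at least 5 ALDH1A3 UMIs were 33.1% (779 cells), and both held in 6.34% (149 cells; 5.38 to 7.40), against 4.27% for the product of the shares. The 303 cells high in CD24 had 730 CPM of ALDH1A3 against 407 CPM in the other 2049, a ratio of 1.79 (1.71 to 1.88). CD44 was lower in them, 90.4 against 130 CPM, a ratio of 0.697 (0.613 to 0.789), and the EPCAM ratio was 1.06 (1.00 to 1.12). PROM1 had a ratio of 7.73 (2.45 to 25.04), from 8 UMIs in the cells high in CD24 and 7 in the others. The cells high in CD24 had a lower median mitochondrial share (5.35% against 6.04%) and fewer cycling cells (60.1% against 69.4%). They also had fewer UMIs of the markers used to name the other lines of the capture (529 against 635 CPM). The part of these in the result was not tested. In MDA-MB-436-like cells, the 263 cells with at least 5 ALDH1A3 UMIs had CD44 ratios of 1.28 (1.20 to 1.36), CD24 ratios of 1.96 (1.57 to 2.43) and ITGA6 ratios of 1.51 (1.31 to 1.72) to the other 1927. EPCAM went the other way, with a ratio of 0.551 (0.296 to 0.949) from 14 against 186 UMIs.

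**Figure D5:**
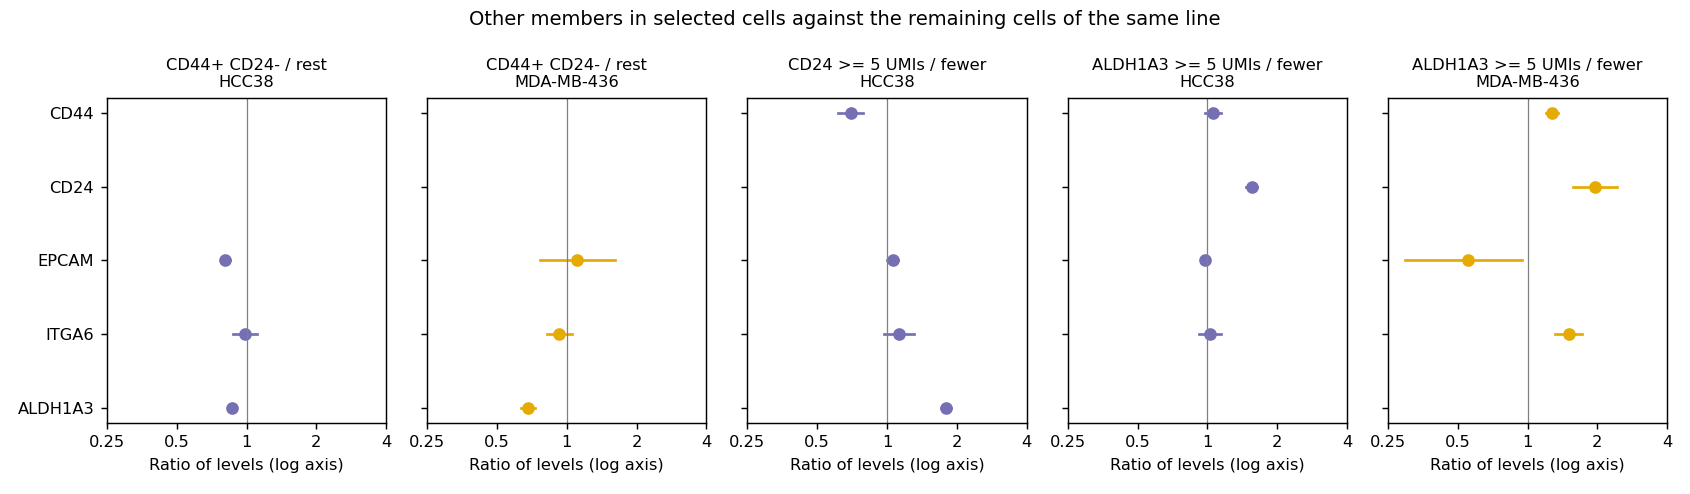
Ratio of the level of each gene between selected cells and the remaining cells of the same group, on a logarithmic axis, with 95% intervals for counting error. The panels split HCC38-like and MDA-MB-436-like cells by the CD44-positive CD24-negative class or at 5 UMIs of CD24 or ALDH1A3, and ALDH1A3 lies at 0.682 in the class of MDA-MB-436-like cells and at 1.79 in HCC38-like cells high in CD24.

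Comparisons between groups used the ratio of CPM plus 1, called at 2-fold, over the 10936 genes with at least 10 CPM in some group. A fold on this scale understates the change of genes at a low level. Of the 7 genes, 6 were among them, all but PROM1. In the mean log2 level of the luminal-like groups against that of the other 4, 3 were called higher, beside 12.0% of all measured genes, and 3 lower, beside 20.8%. CD24 was 10.3-fold, EPCAM 9.18-fold and ALDH1A1 2.88-fold higher, the last through BT-474-like cells alone. CD44 was 48.5-fold, ALDH1A3 29.8-fold and ITGA6 2.07-fold lower, and ITGA6 fell short of 2-fold after TMM scaling. CD44 and ALDH1A3 were lower in both luminal groups than in any of the other 4, beside 19.4% of all measured genes, and CD24 and EPCAM overlapped between the types in HCC38-like cells. Both luminal groups were in the capture of the MDA-MB-231-like cells, so type and capture are partly confounded.

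Within the first capture, MDA-MB-231-like against MDA-MB-453-like cells had 3 genes higher, beside 19.7% of all genes, and 2 lower, beside 17.8%. CD44 was 81.5-fold, ITGA6 4.51-fold and ALDH1A3 4.08-fold higher, and EPCAM was 10.9-fold and CD24 10.6-fold lower. BT-474-like against MDA-MB-453-like cells had 4 genes higher, beside 11.4%, and 2 lower, beside 16.4%. ALDH1A1 was 12.2-fold, CD24 3.45-fold, ALDH1A3 2.17-fold and CD44 2.03-fold higher there, while ITGA6 was 4.04-fold and EPCAM 2.12-fold lower, and EPCAM fell short of 2-fold after TMM scaling. Both comparisons share the MDA-MB-453-like cells, whose CD44, ALDH1A1 and ALDH1A3 levels did not exceed carry-over.

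Within the second capture, HCC38-like cells had more EPCAM, CD24 and ALDH1A3 and less CD44 than both of the others, and both comparisons share the HCC38-like cells. Against Hs578T-like cells, 4 genes were higher, beside 18.9% of all genes, and 1 lower, beside 13.7%. EPCAM was 99.9-fold, ALDH1A3 32.8-fold, CD24 21.2-fold and ITGA6 6.36-fold higher, and CD44 was 3.10-fold lower. The EPCAM level of Hs578T-like cells did not exceed carry-over. Of all calls in this comparison 57.9% were higher, and 42.0% after TMM scaling, which moved the median of all genes by -0.24 on the log2 scale. Against MDA-MB-436-like cells, 3 were higher, beside 21.4%, and 1 lower, beside 14.5%. EPCAM was 49.5-fold, CD24 8.07-fold and ALDH1A3 2.34-fold higher, and CD44 3.01-fold lower.

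Genes that work with the 7 were read from lists, as counts past 2-fold in the luminal-like groups against the other 4, beside a median log2 ratio of -0.17 over all measured genes, of which 12.0% were higher and 20.8% lower. Lists of 8 to 17 measured genes are small, and several counts lie near those shares. Of the CD44 ligands, partners and splicing factors, 3 of 17 measured genes were higher and 9 lower, with a median of -1.38. MSN (moesin, which ties CD44 to actin) was 85.7-fold lower, at 1.66 CPM in BT-474-like and 1.72 CPM in MDA-MB-453-like cells and 198 to 247 CPM in the others. Both luminal levels lay below their carry-over levels of 2.26 and 2.00 CPM, so the fold is against background. SRGN (serglycin, a proteoglycan that CD44 binds) reached 479 CPM in Hs578T-like cells. EZR (ezrin) was between 93.6 and 393 CPM in all groups. ESRP1, which directs epithelial splicing of CD44, was 18.0-fold higher, with 83.8, 107 and 101 CPM in BT-474-like, MDA-MB-453-like and HCC38-like cells and levels below carry-over in the rest (1.53 against 2.06 CPM in MDA-MB-231-like cells).

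Of the EPCAM and CD24 partners and their epithelial regulators, 12 of 17 were higher and 3 lower, with a median of 3.02. CLDN7, a claudin that forms complexes with EPCAM, was 18.1-fold higher, and FHL2, which takes part in EPCAM signalling, 40.7-fold lower. HCC38-like cells had 108 CPM of CLDN7, near the luminal groups, against 0.959 CPM in Hs578T-like and 0.825 CPM in MDA-MB-436-like cells, both below their carry-over levels of 0.982 and 0.931 CPM. CD9, a tetraspanin, reached 627 CPM in MDA-MB-453-like cells. SPINT2, a protease inhibitor, was 9.98-fold higher. It stood at 4.46 CPM in Hs578T-like and 4.87 CPM in MDA-MB-436-like cells, near carry-over levels of 3.69 and 3.48 CPM.

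Of the integrin alpha 6 partners and ligands, 0 of 10 were higher and 7 lower, with a median of -1.74. LAMB3, a chain of the laminin that alpha 6 beta 4 binds, was 7.92-fold lower, and ITGB4, the beta 4 chain itself, had a ratio of 1.01. Of the aldehyde dehydrogenases, 4 of 12 were higher and 3 lower, with a median of 0.49. ALDH3B2 was 51.4-fold higher, at 149 CPM in BT-474-like and 61.5 CPM in MDA-MB-453-like cells, and ALDH3B1 was 6.43-fold lower. ALDH7A1 reached 147 CPM in HCC38-like cells. Of the prominin family and other surface markers, 1 of 9 was higher and 6 lower, with a median of -2.10. PROM2, the relative of PROM1, was the higher one at 6.70-fold, and THY1, a marker of mesenchymal cells, was 16.0-fold lower. THY1 was among the markers that named the Hs578T-like group, so a high level there is partly built into the name. It stood at 815 CPM in Hs578T-like cells and had no UMI in the 3 groups of the first capture. It lay below its carry-over level in HCC38-like (8.14 against 16.8 CPM) and MDA-MB-436-like cells (7.72 against 14.5 CPM). Those background counts also enter the fold. Of the stem-cell transcription and chromatin factors, 2 of 8 were higher and 1 lower, with a median of 0.11. SOX9 was 3.49-fold lower, MSI2 3.30-fold higher, and HCC38-like cells had 2849 CPM of ID1 and 307 CPM of ID4. ID1 and ID4 are inhibitors of basic helix-loop-helix factors.

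The genes whose pattern was most like each member were found by Pearson r of log2(CPM + 1) over the 6 groups, among 5237 genes with at least 50 CPM in some group. With 6 points many genes reach a high r, and the values are a description only. They were ZRANB2 (0.995), FOSL1 (0.994) and FGFR1 (0.992) for CD44, with 266 genes over 0.9. For CD24 they included MARK2 (0.993) and CRIP1 (0.987), with 73 over 0.9. For EPCAM they were NOL3 (0.989), EMC10 (0.988) and LLGL2 (0.984), for ALDH1A3 SART1 (0.985), RANBP6 (0.98) and ERC1 (0.979), and for ALDH1A1 KIF1A (0.985), RAE1 (0.981) and STX16 (0.981). ITGA6 had the fewest, 17 genes over 0.9, led by METTL5 (0.959), KHDRBS1 (0.958) and MTCH2 (0.953).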

How the data were processed

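Gene expression was measured with a droplet-based 3′ kit in 2 captures of 3 lines each. The values are raw UMI counts per gene and barcode, deposited by the authors in 1 matrix made with Cell Ranger 6.1.2, per the file headers. The submitters' processing notes name the build as GRCh38 (hg38). How cells were called, how oligos were assigned and whether strand was used is unknown from the sources used here. Of 17605 barcodes, 15538 had 1000 UMIs or more, 500 genes or more and no more than 20% mitochondrial UMIs. Scrublet, as implemented in scanpy 1.11.5, was run per capture with an expected rate of 0.06 and called 251 (1.62%). Another rule called 437 barcodes mixed where the 50 most specific genes of a different line in the capture (50 CPM or more, none of the 7 genes) reached 25% of that line's median. Together 456 were removed.

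Counts were summed per barcode suffix as CPM. For the shares, each cell was thinned at random to 10000 UMIs (14804 cells). Carry-over was the median ratio of receiving to source line over the 50 genes (at least 50 CPM in the source line) with the lowest ratio. Levels expected from the 2 source lines were added, and expression of these genes in the remaining line was not considered. Cycling cells had at least 3 UMIs of MKI67, TOP2A, CDK1 and CCNB1 together. Ratios of sets of cells carry conditional binomial intervals. With 1 culture per line there was no test, and edgeR 4.0.16 (R 4.3.3) gave only TMM factors. Python 3.11.15, numpy 2.4.6, scipy 1.17.1 and pandas 2.3.3 were used. The scripts were tested on simulated data.

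The 7 genes and the lists of markers and partners were chosen with earlier results of these data known, and the sets split by EPCAM, by cycling genes or at 5 UMIs were chosen after seeing the data. Named were the 7 genes, of each list the measured genes with the highest and lowest ratio of luminal-like groups to the others and the 2 with the highest CPM, and the 3 genes most like each member, except for items not reported here. Alternatives changed depth, thresholds, cell filters, scaling and pseudocount.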

Additional observations from a re-analysis of the deposited data

How the results depend on the processing

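The shares of CD44-positive CD24-negative cells moved with depth and threshold, and the order of luminal, HCC38-like and other groups held under each setting listed here. At 5000 UMIs they were 71.4% in MDA-MB-231-like, 80.4% in Hs578T-like and 72.1% in MDA-MB-436-like cells. At 20000 UMIs they were 0.0% in BT-474-like, 78.0% in MDA-MB-231-like, 1.28% in MDA-MB-453-like, 23.0% in HCC38-like, 86.0% in Hs578T-like and 74.8% in MDA-MB-436-like cells. Without thinning they were 0.0% in BT-474-like, 72.1% in MDA-MB-231-like, 18.1% in HCC38-like, 76.0% in Hs578T-like and 65.9% in MDA-MB-436-like cells. With at least 2 CD44 UMIs they were 0.0% in BT-474-like, 68.7% in MDA-MB-231-like, 0.0% in MDA-MB-453-like, 15.8% in HCC38-like, 78.9% in Hs578T-like and 70.2% in MDA-MB-436-like cells. With CD24-negative at 1 or fewer UMIs they were 90.9% in MDA-MB-231-like, 1.44% in MDA-MB-453-like, 42.0% in HCC38-like, 95.2% in Hs578T-like and 90.8% in MDA-MB-436-like cells. Without a cell filter the MDA-MB-231-like share was 80.8%, and with at most 10% mitochondrial UMIs the BT-474-like share was 0.0%, from 201 cells. Keeping doublets and mixed barcodes, or taking the exact hypergeometric expectation in place of 1 thinning, left all 6 shares within their intervals. Keeping those barcodes raised low levels by over 1.5 times, CD44 in MDA-MB-453-like cells to 5.16 CPM, CD24 in MDA-MB-231-like cells to 21.2 CPM, EPCAM in Hs578T-like cells to 5.92 CPM, ALDH1A1 in MDA-MB-231-like cells to 0.188 CPM and in MDA-MB-453-like cells to 0.156 CPM, and ALDH1A3 in MDA-MB-453-like cells to 0.0912 CPM. ALDH1A1 in Hs578T-like cells, with 1 UMI, went to 0.024 CPM. With TMM scaling, 1 gene in place of 2 was lower in BT-474-like than in MDA-MB-453-like cells, and the other 9 counts of called genes stayed within 1.5 times. TMM scaling moved the median log2 ratio of all genes by 0.12 in the luminal comparison, -0.24 for HCC38-like against Hs578T-like, -0.13 against MDA-MB-436-like and 0.11 for BT-474-like against MDA-MB-453-like cells. No direction of a called gene changed with TMM scaling or a pseudocount of 0.1 CPM. The Fano factor of CD24 moved with depth, from 3.34 at 5000 to 9.43 at 20000 UMIs in HCC38-like cells. In MDA-MB-436-like cells it went from 1.34 to 2.67. No paired analysis was possible because each line was 1 culture and no result comes from a test.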

Other observations

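Cycling and EPCAM status were compared with the members inside single lines, and these splits were chosen after seeing the data. In HCC38-like cells, cycling cells had less ALDH1A3, 365 against 628 CPM, a ratio of 0.581 (0.559 to 0.604), and less CD24, with a ratio of 0.741 (0.699 to 0.786). In MDA-MB-436-like cells the CD24 ratio was 0.603 (0.503 to 0.724), and that of ALDH1A3 was 0.931. Cycling HCC38-like cells had a median of 38372 UMIs before thinning, against 28333 in the others. In BT-474-like cells the ITGA6 ratio was 1.36 (1.06 to 1.73), and in MDA-MB-453-like cells 1.20.

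The 115 HCC38-like cells without an EPCAM UMI had more CD44 and less CD24 and ALDH1A3 than the 2237 with one. The ratios of cells with EPCAM to cells without were 0.673 (0.585 to 0.779) for CD44, 2.18 (1.80 to 2.66) for CD24 and 1.99 (1.76 to 2.25) for ALDH1A3. The markers used to name the other lines of the capture summed to 1004 CPM in cells without EPCAM and 601 CPM in cells with it. These sums also count any expression of the markers in HCC38-like cells, and their part in the result was not tested. In MDA-MB-231-like cells the CD44 ratio was 0.992 and the CD24 ratio 1.23 (0.985 to 1.53).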
